A study of Homo sapiens with 9 samples.

Results

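The expression of 46 interferon-stimulated genes was examined in the glioblastoma line U87 and in a pair of radioresistant lines made from it. The members were the rows of the deposited expression table that carry the symbols of a list of 46 well-known interferon-stimulated genes, and all 46 were found among 60606 genes. U87 is an established human glioblastoma line, was grown in serum and was the wild-type, non-selected group. GSCs were glioblastoma stem cells derived from U87, kept in serum-free neural stem cell medium with EGF and bFGF and irradiated repeatedly until radioresistant. Diff cells were the differentiated, radioresistant progeny of those GSCs, grown in serum and selected from clonal colonies. Each group had 3 RNA-seq libraries. No unirradiated stem cell group was analysed here. Between GSCs and U87, irradiation, derivation as stem cells and the medium cannot be told apart. Between Diff cells and U87, irradiation, passage through a stem cell state and clonal selection cannot be told apart. The same holds between Diff cells and GSCs for differentiation, the medium and clonal selection. The labels do not say whether the libraries came from separate cultures, so p-values measure only the spread between these libraries, which may be technical.

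Interferons are secreted when cells sense foreign or misplaced nucleic acid. Type I and type III interferons bind their receptors, the kinases JAK1 and TYK2 activate STAT2, and a complex that holds STAT2 and IRF9 binds the interferon-stimulated response element (ISRE) in front of target genes. Interferon gamma acts through another element, the gamma-activated sequence (GAS). The target genes encode proteins that block viral entry, translation and assembly, and several of them are part of the pathway itself. Some of these genes are also expressed in cells to which no interferon was added.

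Promoters of 6 members are shown because the results below turn on these genes and because they hold the ISRE letters, in genes that were higher and in genes that were lower in the irradiated lines. The sequences are from RefSeq on build GRCh38.p14, run 5′ to 3′ on the strand of the gene from 250 bases before to 50 bases after a transcription start, and carry in capitals each run of GAAA, any pair of bases and GAAA (GAAA, NN, GAAA) on either strand. HERC5, IFIT3, PLSCR1 and DTX3L had higher levels in both irradiated lines than in U87, and IFI44L and IFI44 had lower levels.
HERC5 (chr4:88456869-88457168, plus strand): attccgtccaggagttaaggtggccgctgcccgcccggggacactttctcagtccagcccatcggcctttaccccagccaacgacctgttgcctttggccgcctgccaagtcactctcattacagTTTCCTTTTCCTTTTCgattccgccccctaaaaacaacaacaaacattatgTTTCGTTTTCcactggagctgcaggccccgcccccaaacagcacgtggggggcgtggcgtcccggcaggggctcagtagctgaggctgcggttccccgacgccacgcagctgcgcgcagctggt
IFIT3 (chr10:89327747-89328046, plus strand): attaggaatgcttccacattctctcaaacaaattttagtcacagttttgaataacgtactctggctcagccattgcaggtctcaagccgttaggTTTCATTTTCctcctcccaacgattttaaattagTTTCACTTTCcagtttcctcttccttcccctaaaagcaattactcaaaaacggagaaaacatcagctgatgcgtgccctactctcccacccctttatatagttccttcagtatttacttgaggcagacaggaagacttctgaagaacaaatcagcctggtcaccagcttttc
PLSCR1 (chr3:146544558-146544857, minus strand): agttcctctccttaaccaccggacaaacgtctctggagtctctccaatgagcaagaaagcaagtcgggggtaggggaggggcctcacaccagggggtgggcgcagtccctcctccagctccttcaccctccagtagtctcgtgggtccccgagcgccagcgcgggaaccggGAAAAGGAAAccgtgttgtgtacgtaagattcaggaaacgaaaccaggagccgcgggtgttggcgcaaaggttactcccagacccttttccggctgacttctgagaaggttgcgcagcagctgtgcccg
DTX3L (chr3:122564088-122564387, plus strand): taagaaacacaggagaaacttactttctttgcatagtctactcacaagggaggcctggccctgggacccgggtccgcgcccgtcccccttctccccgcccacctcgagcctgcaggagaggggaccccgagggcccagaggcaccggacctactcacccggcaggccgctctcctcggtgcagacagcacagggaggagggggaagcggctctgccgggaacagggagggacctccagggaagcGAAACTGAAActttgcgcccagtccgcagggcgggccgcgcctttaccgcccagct
IFI44L (chr1:78620198-78620497, plus strand): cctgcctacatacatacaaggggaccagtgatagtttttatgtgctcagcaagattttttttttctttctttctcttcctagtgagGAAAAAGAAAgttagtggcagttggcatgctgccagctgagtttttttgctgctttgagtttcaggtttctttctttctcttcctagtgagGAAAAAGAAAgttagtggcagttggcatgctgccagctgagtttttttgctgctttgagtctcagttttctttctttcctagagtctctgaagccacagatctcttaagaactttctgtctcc
IFI44 (chr1:78649539-78649838, plus strand): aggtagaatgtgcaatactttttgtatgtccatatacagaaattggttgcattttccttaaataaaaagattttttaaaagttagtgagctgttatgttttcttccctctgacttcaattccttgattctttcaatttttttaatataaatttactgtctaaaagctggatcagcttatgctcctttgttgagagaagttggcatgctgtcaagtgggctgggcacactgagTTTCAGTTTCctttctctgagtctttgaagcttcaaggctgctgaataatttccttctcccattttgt

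In the HERC5 promoter a pair of overlapping matches and a separate match lay between 125 and 65 bases before the start. The IFI44L promoter held the same 10 letters in 2 places, inside a longer stretch that is itself repeated. The match of DTX3L spans its start, and the promoter of one PARP9 start faces that of DTX3L and shares 137 bases with it, the match included. RefSeq sequence was matched by symbol for 37 of the 46 members. Of these 37, 25 (67.6%) had the ISRE letters in at least 1 promoter, against 4.38% of 27305 genes. The GAS letters TTCNNNGAA were in a promoter of 11 of the 37 (29.7%), against 9.38% of all genes. No ISRE match was found in the windows of 12 members, among them STAT2, HERC6 and SAMD9L, which says only that these letters are not in those 300-base windows. A match is a description and not a site. Members without sequence in the table were TRIM22, IFIT2, GBP2, OAS2, USP18, MX2, IFITM2, IRF7 and OASL.

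Levels are given as TPM (transcripts of a gene per 1000000, scaled for gene length and library total), taken back from the deposited log2(TPM + 1). The read depth behind them is unknown, since TPM keeps no depth. The small RNA RN7SL1 took 5.73 to 9.79% of the TPM and mitochondrial genes took 25.9 to 31.8% in the 9 libraries. The labels describe removal of rRNA and the study's methods describe oligo(dT) beads, and which of these the libraries had was not settled. Of the leukocyte markers, only CSF1R had a mean TPM over 1 (1 of 7), and PTPRC was at most 0.137 TPM. The summed leukocyte markers were 13.3 to 16.8 TPM in U87, 4.75 to 5.5 in GSCs and 9.39 to 11.6 in Diff cells, nearly all of it CSF1R. Endothelial markers (2 of 3 over 1 TPM) summed to 2.66 to 4.41, 16.4 to 18.9 and 4.13 to 5.55 TPM in the same order, with VWF higher in GSCs and CDH5 under 0.5 in every library. The part of these markers in the results was not tested. Of the stem cell markers, SOX2 and PROM1 were under 1 TPM in all libraries but highest in GSCs. SOX2 was 0.809 to 0.994 TPM in GSCs, 0.11 to 0.185 in Diff cells and 0 to 0.115 in U87. PROM1 was 0.38 to 0.596, 0.0156 to 0.0366 and 0.121 to 0.238 TPM in the same order. NES was highest in U87. FABP7 was 4.38 to 5.82 TPM in GSCs, 2.53 to 3.27 in Diff cells and 0.546 to 0.986 in U87.

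Most members were expressed without any added interferon in the protocols. A mean over 1 TPM across the 9 libraries was reached by 38 of the 46, of which 19 were over 10 TPM. A further 7 members were between 0.1 and 1 TPM, and RSAD2, which makes a chain-terminating nucleotide, was under 0.1 TPM. The highest level was that of UBE2L6, the E2 enzyme that passes ISG15 to its targets. UBE2L6 was 145, 147 and 133 TPM in U87, 190, 192 and 171 in GSCs and 181, 210 and 198 in Diff cells, so both irradiated lines lay above U87. In bulk RNA, as here, fewer cells that express a gene and less RNA per cell cannot be told apart. ISG15 itself, the ubiquitin-like modifier, was at 13.9 ± 1.11 TPM in U87, 13.8 ± 3.01 in GSCs and 18 ± 1.52 in Diff cells (SD, n = 3). The kinase PKR (EIF2AK2), which halts translation on double-stranded RNA, was 32.1, 33.3 and 31.7 TPM in U87, 32.2, 30.5 and 38.5 in GSCs and 38, 31.3 and 33.7 in Diff cells, with overlapping groups.

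**Figure D1:**
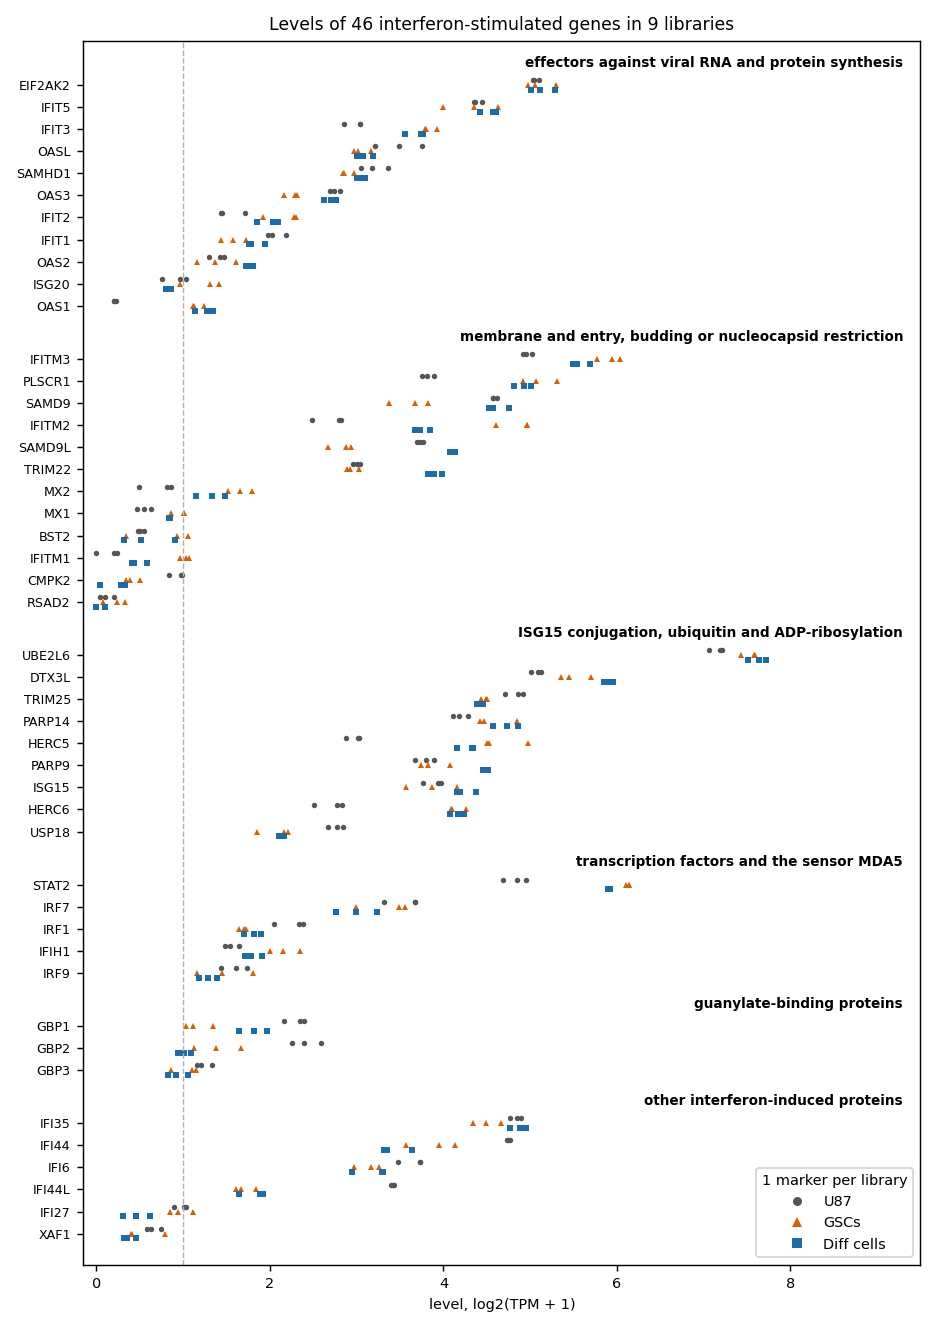
Level of each of the 46 members on the log2(TPM + 1) scale (x axis) in 9 libraries, grouped by role, with 1 marker per library (circles U87, triangles GSCs, squares Diff cells). The dashed line marks 1 TPM. STAT2, PLSCR1, HERC5 and HERC6 had all U87 libraries below the others, while IFI44L and IFI44 had all U87 libraries above them.

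GSCs and Diff cells were each compared with U87 by limma on log2(TPM + 1) over 22909 genes with a mean over 1 TPM, among which were the 38 members. A member was called when its Benjamini-Hochberg adjusted p was under 0.05 and its log2 fold change was over 1 in size. In GSCs, 5 of 38 members (13.2%) were called higher, against 9.52% of all genes tested, and 3 (7.89%) were called lower, against 7.53%. In Diff cells, 5 were called higher (5.92% of all genes) and 3 were called lower (6.36% of all genes). The 5 called higher in each line were IFITM2, HERC5, HERC6, STAT2 and PLSCR1, and both comparisons share the U87 libraries. By adjusted p alone, 13 members passed upward (25.3% of all genes) and 15 downward (23.3%) in GSCs, and 15 passed upward (18.9%) and 10 downward (20.5%) in Diff cells. The median log2 fold change of the 38 was -0.05 in GSCs, where that of all genes was 0.02, and 0.12 in Diff cells, where that of all genes was -0.04. The members spread in both directions, from -1.71 to 2.15 in GSCs and from -1.6 to 1.45 in Diff cells.

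The transcription factor STAT2 (chr12:56341597-56360107) had the lowest adjusted p of the 38 members in both comparisons. STAT2 was 27.7, 30 and 24.7 TPM in U87, 69.8, 69.6 and 67.9 in GSCs and 58.5, 58.7 and 59.8 in Diff cells. The 3 groups did not overlap, with U87 lowest and GSCs highest. The log2 fold change was 1.30 ± 0.0684 (SE) in GSCs (limma adjusted p = 1.05e-06) and 1.08 ± 0.0684 in Diff cells (limma adjusted p = 4.64e-06). Its partner IRF9 was at 2.03 ± 0.319, 1.81 ± 0.634 and 1.44 ± 0.175 TPM in U87, GSCs and Diff cells (SD, n = 3) and passed in neither comparison, but 48.4% of its exon bases are shared with another annotated gene on the same strand, so its level is uncertain. IRF1, a factor induced by interferon gamma, fell by 0.57 on the log2 scale in GSCs and by 0.46 in Diff cells (limma adjusted p = 0.00725 and 0.0248). The pass of IRF1 in Diff cells held in 14 of 18 alternative settings (highest limma adjusted p = 0.0932). IRF7, which drives the interferon alpha genes, was at -0.56 in Diff cells (limma adjusted p = 0.0415, under 0.05 in 9 of 19 alternative settings, highest 0.132) and was at -0.21 in GSCs (limma adjusted p = 0.384). IFIH1, which encodes the RNA sensor MDA5, rose in GSCs (0.61, limma adjusted p = 0.00541) and did not pass in Diff cells (0.24, limma adjusted p = 0.192).

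Among genes of ISG15 conjugation, ubiquitin and ADP-ribosylation, 5 of 9 rose and 2 fell in GSCs, and 6 rose and 2 fell in Diff cells. For these and the other group counts by adjusted p against U87, the shares of all genes that passed were 25.3% upward and 23.3% downward in GSCs, and 18.9% and 20.5% in Diff cells, and no group was tested against them. HERC5, the main E3 ligase for ISG15, was 7.13, 7.08 and 6.33 TPM in U87, 21.6, 22 and 30.5 in GSCs and 19.1, 19.2 and 16.8 in Diff cells. Every library of the irradiated lines was above every U87 library, and GSCs were above Diff cells. Its log2 fold change was 1.70 ± 0.132 in GSCs (limma adjusted p = 1.04e-05) and 1.30 ± 0.132 in Diff cells (limma adjusted p = 7.35e-05). The neighbouring gene HERC6 was 5.82, 6.11 and 4.69 TPM in U87, 16.1, 16 and 18.1 in GSCs and 17.8, 15.8 and 17 in Diff cells. GSCs and Diff cells overlapped, and both lay above U87, with a log2 fold change of 1.45 ± 0.104 in each (limma adjusted p = 6.49e-06 and 9.31e-06). DTX3L, a ubiquitin ligase that works as a pair with PARP9, was 31.2, 33 and 33.9 TPM in U87, 42.5, 40.1 and 50.9 in GSCs and 60.9, 56.6 and 58.6 in Diff cells. The groups were ordered U87, GSCs, Diff cells without overlap, and DTX3L rose by 0.43 and 0.83 on the log2 scale against U87 (limma adjusted p = 0.00332 and 9.38e-05). USP18, which removes ISG15 and damps the type I receptor, went the other way and fell by 0.69 in GSCs and 0.64 in Diff cells (limma adjusted p = 0.0018 and 0.00356), though 18.3% of its 75-base words occur elsewhere among annotated transcripts, so its level is uncertain. TRIM25, which ubiquitinates the sensor RIG-I, fell by 0.36 and 0.40 (limma adjusted p = 0.0022 and 0.00155). PARP14, a mono-ADP-ribosyltransferase, rose by 0.39 and 0.53 (limma adjusted p = 0.0262 and 0.00809).

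Of the membrane, entry and nucleocapsid restriction factors, 7 of 12 were tested, and 4 rose and 2 fell in GSCs while 6 rose and none fell in Diff cells. IFITM2, which hinders fusion of virus with endosomes, was 5.92, 4.58 and 6.07 TPM in U87, 30.2, 30.3 and 23.4 in GSCs and 11.8, 13.4 and 12.3 in Diff cells. The groups did not overlap, with Diff cells between U87 and GSCs. IFITM2 had the largest rise of the tested members in GSCs, 2.15 ± 0.13 (limma adjusted p = 2.34e-06), and rose by 1.05 ± 0.13 in Diff cells (limma adjusted p = 0.000244), a call lost without replicate 2 of U87, where it was 0.944. Its level is uncertain because 22.7% of its exon bases overlap IFITM1 on the same strand. IFITM3 was 31.5, 30 and 29.2 TPM in U87, 64.4, 60.5 and 53.4 in GSCs and 44.2, 50.8 and 45.7 in Diff cells, in the same order as IFITM2. It rose by 0.95 in GSCs and 0.61 in Diff cells (limma adjusted p = 1.99e-05 and 0.000388). Of the IFITM3 exon bases, 21.3% overlap a gene on the other strand, and the strand setting of the counting is not given. PLSCR1, a phospholipid scramblase, was 13.9, 13 and 12.5 TPM in U87, 29.3, 32.5 and 38.6 in GSCs and 31.2, 27.2 and 29.5 in Diff cells. Both irradiated lines lay above U87, by 1.28 ± 0.102 and 1.10 ± 0.102 on the log2 scale (limma adjusted p = 1.26e-05 and 4.5e-05).

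Among effectors against viral RNA and protein synthesis, 10 of 11 were tested and none was called by limma in either line. By adjusted p alone, 2 rose and 4 fell in GSCs, and 2 rose and 1 fell in Diff cells. IFIT3 and IFIT2 bind foreign RNA together with IFIT1, and both passed upward in both lines, IFIT2 in Diff cells (0.46, limma adjusted p = 0.0423) in 10 of 18 alternative settings. IFIT3 went from 6.9 ± 0.568 TPM in U87 to 13.3 ± 0.759 in GSCs and 11.9 ± 1.02 in Diff cells (SD, n = 3), a log2 fold change of 0.86 and 0.71 (limma adjusted p = 9.37e-05 and 0.000389). IFIT1, from the same cluster on chromosome 10, fell in GSCs (-0.48, limma adjusted p = 0.0167) and was at -0.23 in Diff cells (limma adjusted p = 0.213). OAS3, which makes the activator of RNase L, fell by 0.49 in GSCs (limma adjusted p = 0.00301) and was at -0.05 in Diff cells (limma adjusted p = 0.715). OASL, a catalytically inactive relative, fell by 0.43 in GSCs (limma adjusted p = 0.0293, under 0.05 in 14 of 19 alternative settings). In Diff cells it was at -0.40 with a limma adjusted p of 0.05, just under the threshold, and stayed under it in 3 of 19 alternative settings (0.0133 to 0.154). SAMHD1, which depletes nucleotides, was at -0.31 in GSCs (limma adjusted p = 0.0346, under 0.05 in 10 of 19 alternative settings, highest 0.122). OAS2 and the exonuclease ISG20 passed in neither line.

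The members called lower against U87 were IFI44L, IFI44 and a pair of guanylate-binding proteins, large GTPases that attack the membranes of intracellular pathogens. IFI44L (chr1:78620448-78646145) was 9.67, 9.82 and 9.55 TPM in U87, 2.06, 2.17 and 2.57 in GSCs and 2.78, 2.13 and 2.68 in Diff cells. The irradiated lines overlapped each other far below U87, and the log2 fold change was -1.71 ± 0.119 and -1.60 ± 0.119 (limma adjusted p = 5.45e-06 and 1.18e-05). IFI44 was 25.5, 26.2 and 25.8 TPM in U87, 14.5, 10.9 and 16.6 in GSCs and 8.95, 9.18 and 11.4 in Diff cells. It was called lower in Diff cells (-1.32 ± 0.143, limma adjusted p = 0.000118) and passed without the fold threshold in GSCs (-0.86 ± 0.143, limma adjusted p = 0.00111). GBP1 was 4.25, 3.47 and 4.09 TPM in U87, 1.05, 1.16 and 1.53 in GSCs and 2.51, 2.13 and 2.91 in Diff cells, and the 3 groups did not overlap. It fell by 1.14 in GSCs and by 0.49 in Diff cells (limma adjusted p = 0.000254 and 0.0281). The pass of GBP1 in Diff cells held in 13 of 18 alternative settings. GBP2 was 4.26, 3.77 and 5.01 TPM in U87, 1.59, 1.18 and 2.17 in GSCs and 1.13, 1.02 and 0.916 in Diff cells, with U87 highest and Diff cells lowest. It fell by 1.03 and 1.40 (limma adjusted p = 0.00109 and 0.000232). The call in GSCs was lost without replicate 3 of U87 (-0.939) and without replicate 2 of GSCs (-0.895). Of the GBP2 exon bases, 9.89% overlap GBP7 on the same strand, so its level is uncertain. GBP3 did not pass in either line. IFI6, a mitochondrial and reticulum protein, fell by 0.52 and 0.47 (limma adjusted p = 0.0109 and 0.0218), in Diff cells with a pass in 16 of 19 alternative settings. IFI35 fell by 0.34 in GSCs (limma adjusted p = 0.0143) and was at 0.03 in Diff cells (limma adjusted p = 0.818).

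**Figure D2:**
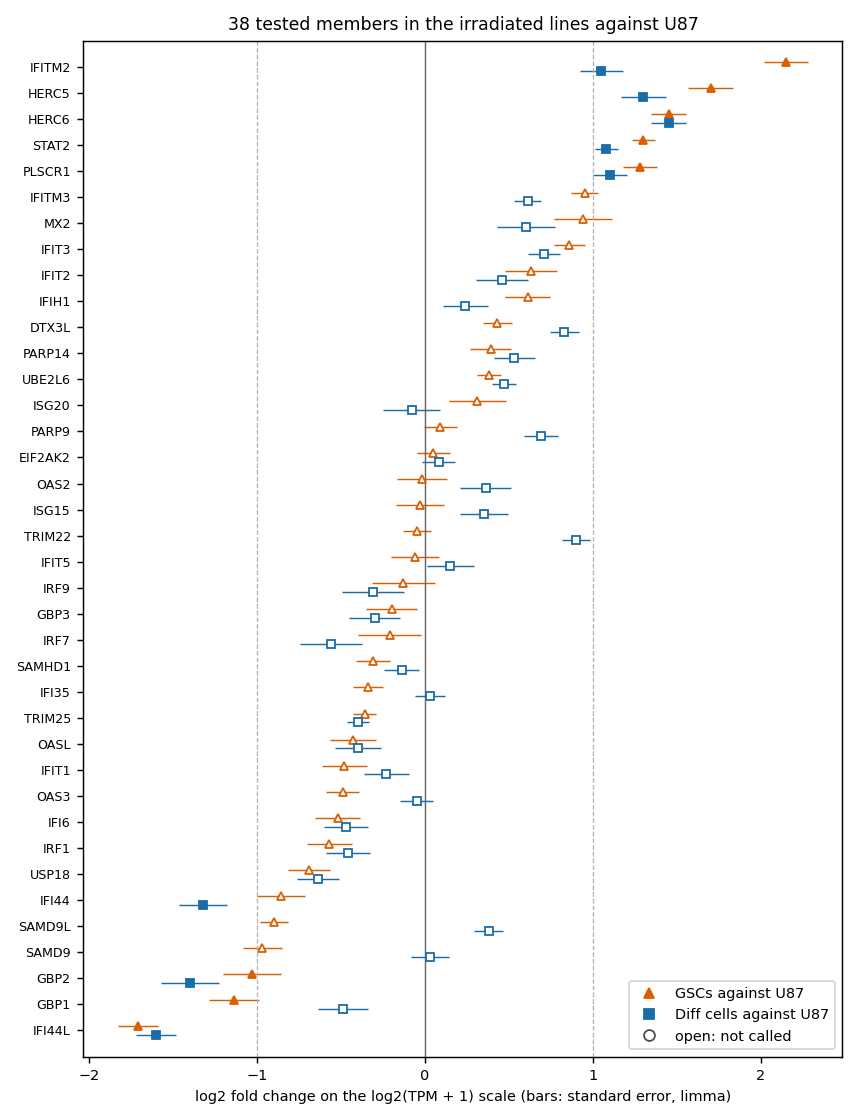
Log2 fold change against U87 on the log2(TPM + 1) scale (x axis) for 38 tested members, with triangles for GSCs and squares for Diff cells, filled where called. Bars are standard errors from limma, and dashed lines mark the fold threshold. IFITM2 lies furthest right (2.15 in GSCs) and IFI44L furthest left (-1.71), and both were called in both lines.

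ISRE letters were counted in the promoters of members by direction, with no test of the difference. In GSCs, 7 of the 10 members with sequence that passed upward had a match, 7 of 12 that passed downward, and 6 of 7 that did not pass. In Diff cells against U87 the counts were 7 of 11, 4 of 6 and 9 of 12, and in Diff cells against GSCs they were 5 of 7, 3 of 4 and 12 of 18.

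Diff cells were then compared directly with the GSCs they came from. Here 1 of 38 members was called higher (2.63%), against 2.66% of all genes, and 1 was called lower, against 5.36%. By adjusted p alone 8 passed upward (15% of all genes) and 5 downward (19.8%), and with median-ratio scaling the split was 10 and 1. SAMD9L (chr7:93130056-93148385), which restricts poxviruses and slows translation, was the member called higher. SAMD9L was 12.3, 12.6 and 12 TPM in U87, 6.32, 5.38 and 6.67 in GSCs and 16.5, 15.8 and 16.6 in Diff cells. GSCs lay below U87 and Diff cells above it, with no overlap. Diff cells were 1.28 ± 0.0857 above GSCs on the log2 scale (limma adjusted p = 1.35e-05), and against U87 the values were -0.90 in GSCs and 0.38 in Diff cells (limma adjusted p = 3.62e-05 and 0.00745). Its neighbour SAMD9 was 22.7, 23.6 and 22.7 TPM in U87, 11.7, 9.35 and 13.1 in GSCs and 26, 22 and 22.7 in Diff cells. GSCs lay below both other groups, which overlapped, and Diff cells were 1.00 ± 0.115 above GSCs (limma adjusted p = 0.000286), at the threshold and not called. SAMD9 was called in several alternative settings, among them quantile normalization (1.081) and median-ratio scaling (1.06). TRIM22, a restriction factor, was 6.99 ± 0.249, 6.71 ± 0.385 and 13.9 ± 0.83 TPM in U87, GSCs and Diff cells (SD, n = 3), higher in Diff cells than in GSCs by 0.95 (limma adjusted p = 5.71e-05), and 10.7% of its exon bases overlap another gene on the same strand.

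IFITM2 was the member called lower in Diff cells than in GSCs (-1.10 ± 0.13, limma adjusted p = 0.000322). IFITM3 fell by 0.33 on the log2 scale (limma adjusted p = 0.013). IFI44, HERC5 and STAT2 were at -0.46, -0.39 and -0.22 (limma adjusted p = 0.037, 0.0476 and 0.0329), and most alternatives lost these passes, which held in 7, 4 and 9 of 19 settings with adjusted p up to 0.11, 0.145 and 0.117. PARP9 and DTX3L, which lie head to head, rose by 0.59 and 0.40 (limma adjusted p = 0.00197 and 0.0074). GBP1 rose by 0.65 (limma adjusted p = 0.00959), as did OAS3 and IFI35 by 0.44 and 0.37 (limma adjusted p = 0.00847 and 0.0138).

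**Figure D3:**
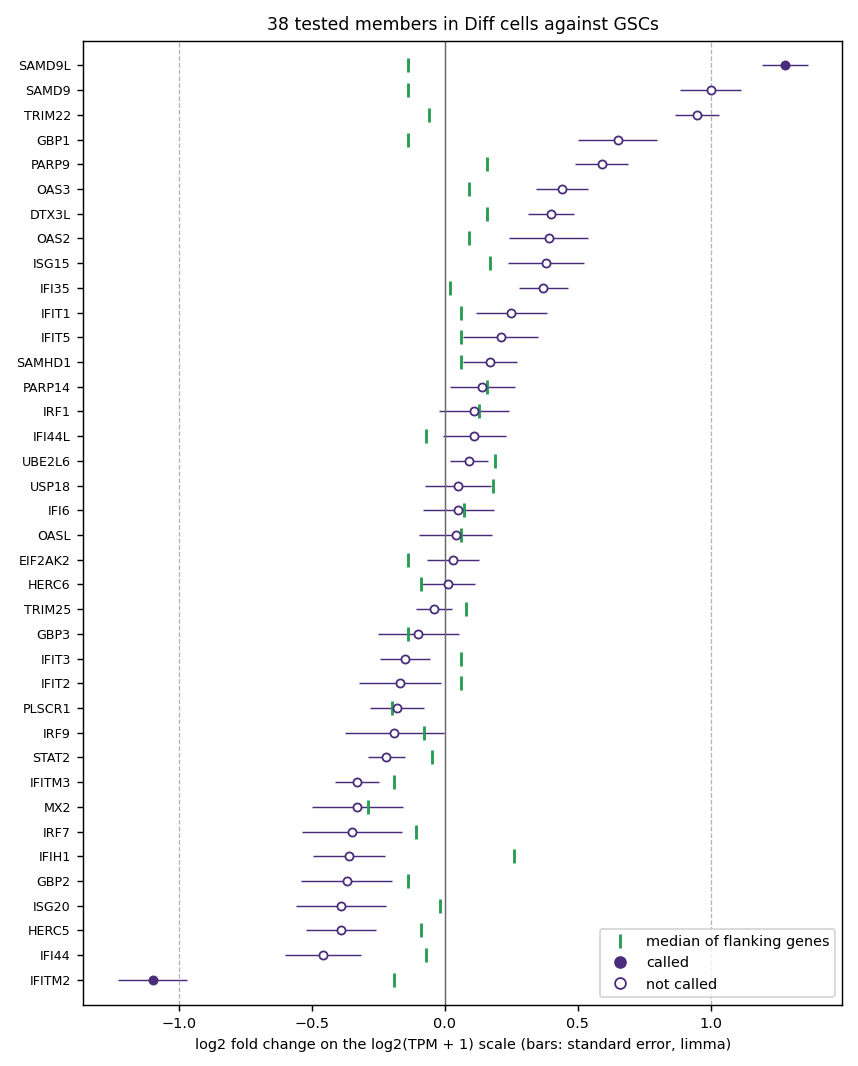
Log2 fold change of Diff cells against GSCs on the log2(TPM + 1) scale (x axis) for 38 tested members, filled where called, with standard errors from limma. Green ticks are the median log2 fold change of the genes that flank each member. SAMD9L stands at 1.28 and IFITM2 at -1.1, where the flanking medians were -0.14 and -0.19.

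The members lie in groups on the chromosomes: 26 of 46 belonged to 10 clusters of neighbours no more than 200 kb apart (GRCh38, RefSeq positions). HERC5 and HERC6 both rose in both lines, and IFI44 and IFI44L both fell. The IFIT cluster was mixed in GSCs, with IFIT2 and IFIT3 up, IFIT1 down and IFIT5 at -0.06 (limma adjusted p = 0.776). Around SAMD9 and SAMD9L, the median of 24 flanking genes was 0.57 in GSCs against U87, where SAMD9 and SAMD9L were at -0.97 and -0.90. In Diff cells against U87 it was 0.41, where SAMD9 and SAMD9L were at 0.03 and 0.38. Around HERC5 and HERC6 the flanking median was 0.15 in GSCs and 0.11 in Diff cells, and around IFI44 and IFI44L it was 0.05 and -0.04. MX2, which blocks nuclear import of viral capsids, rose by 0.94 in GSCs and 0.60 in Diff cells (limma adjusted p = 0.00184 and 0.0214), where its flanking medians were 0.45 and 0.33. The pass of MX2 in Diff cells held in 15 of 18 alternative settings.

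The 8 members with a mean under 1 TPM were OAS1, IFITM1, BST2, MX1, RSAD2, CMPK2, IFI27 and XAF1. OAS1 was 0.151, 0.166 and 0.146 TPM in U87, 1.16, 1.18 and 1.37 in GSCs and 1.2, 1.42 and 1.54 in Diff cells, so U87 lay below both irradiated lines. IFITM1 was listed at 0 to 0.181 TPM in U87, 0.942 to 1.1 in GSCs and 0.331 to 0.492 in Diff cells, but 32.5% of its exon bases overlap IFITM2. CMPK2, a mitochondrial nucleotide kinase next to RSAD2, was 0.909 ± 0.113, 0.328 ± 0.0792 and 0.165 ± 0.117 TPM in U87, GSCs and Diff cells (SD, n = 3). The GTPase MX1 was 0.38 to 0.545 TPM in U87, 0.815 to 1.02 in GSCs and 0.781 to 0.805 in Diff cells, with U87 lowest. IFI27 was 0.856 to 1.04, 0.806 to 1.17 and 0.231 to 0.533 TPM in the same order, with Diff cells lowest. BST2, which tethers budding virus, overlapped between all groups, as did RSAD2. XAF1 was 0.572 ± 0.0873, 0.458 ± 0.235 and 0.296 ± 0.0666 TPM (SD, n = 3), and 38.3% of its exon bases overlap a gene on the other strand.

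Genes upstream of the members were examined from lists of the pathway. None of the 10 interferon ligand genes reached a mean of 1 TPM, and IFNB1, IFNA1 and IFNA2 were listed at 0 in every library. IFNL3 was listed at 0.44, 0.132 and 0.168 TPM in GSCs and at 0 in every library of U87 and Diff cells. IFNL1, IFNG and IFNK were above 0 only in some libraries of GSCs. None of these was tested. A listed 0 can be a failed estimate in a table without counts, since TREX1, whose exons all overlap another gene, was also at 0 throughout. The exons of IFNB1, IFNA1 and IFNA2 overlap no other annotated gene, and whether their listed 0 is a failed estimate was not tested. Of 6 receptor genes, IFNLR1, the specific chain of the type III interferon receptor, was the one called higher in GSCs and in Diff cells. IFNLR1 was listed at 0.0305, 0.0584 and 0 TPM in U87 and was 4.53, 5.11 and 4.11 in GSCs and 4.07, 2.99 and 3.21 in Diff cells. It was near 0 in U87 and above it in both irradiated lines, by 2.44 ± 0.145 and 2.09 ± 0.145 on the log2 scale (limma adjusted p = 2.12e-06 and 7.73e-06). IFNGR2, a chain of the interferon gamma receptor, was 40.9 ± 4.77, 30.9 ± 1.12 and 15 ± 3.57 TPM in U87, GSCs and Diff cells (SD, n = 3) and was called lower in Diff cells against U87 and against GSCs (-1.41 and -1.02, limma adjusted p = 0.000158 and 0.00146).

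Of the JAK-STAT genes and their inhibitors, 9 of 10 were tested, and 3 rose and 3 fell in GSCs while 4 rose and 2 fell in Diff cells. SOCS1, the inhibitor that blocks JAK kinases, was 37.6, 27.5 and 36.8 TPM in U87, 8.45, 7.75 and 4.93 in GSCs and 4.29, 5.81 and 5.63 in Diff cells. Both irradiated lines lay below U87, by 2.13 ± 0.199 and 2.48 ± 0.199 on the log2 scale, and SOCS1 fell with limma adjusted p = 3.26e-05 and 1.87e-05. SOCS3 fell by 0.78 and 0.55 (limma adjusted p = 0.000238 and 0.00259). JAK1 was 52 ± 1.96 TPM in U87, 36.3 ± 1.64 in GSCs and 71.1 ± 1.07 in Diff cells (SD, n = 3), below U87 in GSCs and above it in Diff cells.

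Nucleic acid sensing genes showed 3 of 13 tested rising and 4 falling in GSCs, and 5 rising and 1 falling in Diff cells. DHX58, which encodes the RIG-I-like receptor LGP2, was called higher in GSCs (1.28, limma adjusted p = 2.93e-05) and rose by 0.66 in Diff cells (limma adjusted p = 0.00208). STING1, the adaptor of cytosolic DNA sensing, was 1.05 ± 0.0489, 2.97 ± 0.71 and 4.93 ± 0.415 TPM in U87, GSCs and Diff cells (SD, n = 3), called higher in Diff cells (1.53, limma adjusted p = 6.01e-05). The DNA sensor CGAS was under 0.1 TPM in the mean of each group. IKBKE, a kinase that activates IRF3 and IRF7, was 21.7 ± 0.929, 7.99 ± 1.22 and 20.7 ± 0.172 TPM in the same order (SD, n = 3), called lower in GSCs against U87 (-1.35, limma adjusted p = 7.1e-06) and higher in Diff cells against GSCs (1.28, limma adjusted p = 2.71e-05).

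**Figure D4:**
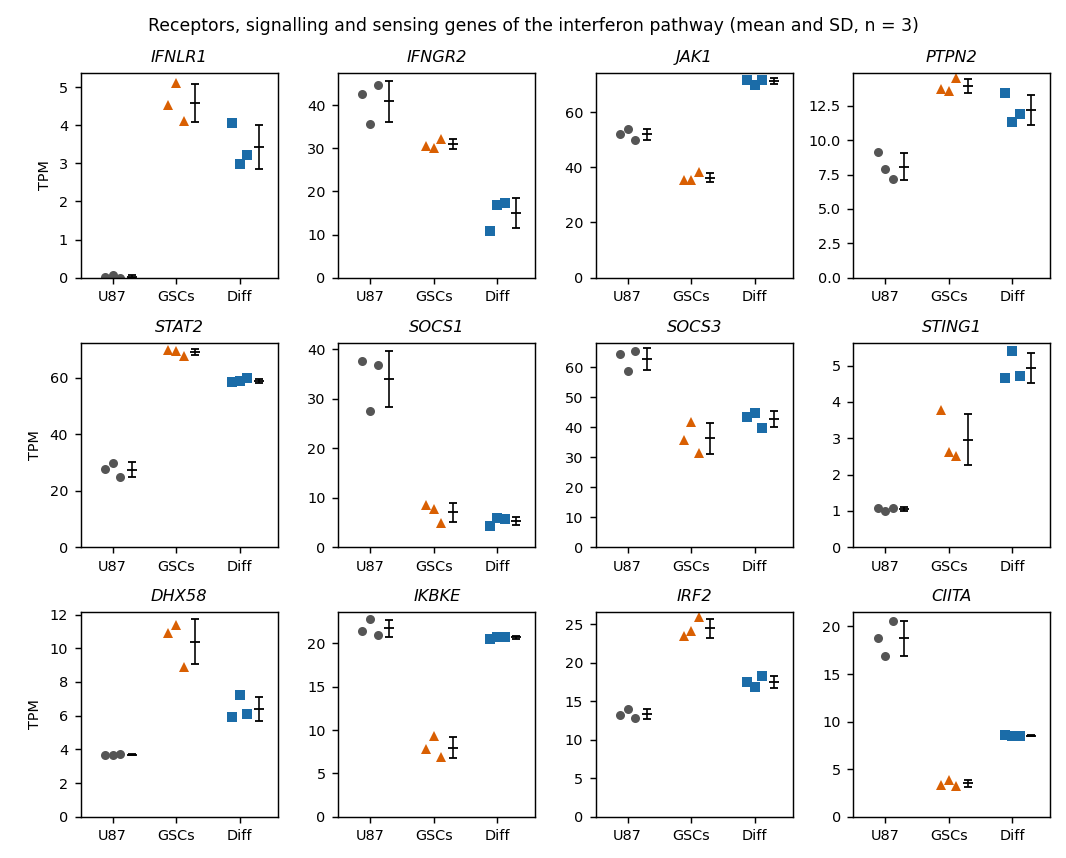
TPM of 12 genes of the interferon pathway and its regulators (y axis, each from 0) in U87, GSCs and Diff cells, 1 marker per library, with the mean and SD of 3 libraries in black. SOCS1 is lower in both irradiated lines (means of 7.04 and 5.24 TPM against 34 in U87), and JAK1 and IKBKE are lower in GSCs than in Diff cells.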

How the data were processed

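The authors deposited log2(TPM + 1) per gene for 9 libraries, 3 per group, with rRNA removal and a directional kit per the labels, whereas the study's methods describe oligo(dT) selection. The submitters' processing notes name FastQC 0.11.9, Trimmomatic 0.39, HISAT2 2.2.1, featureCounts 2.0.5, R 4.2.0 and build GRCh38. The annotation release and strand setting are not given in the sources used here. Back-transformed columns each summed to 1000000 TPM. The depth per library is unknown, so no counting interval was given.

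Genes with a mean TPM over 1 (22909) entered one model over all 9 libraries with group as its term (limma 3.58.1, R 4.3.3, moderated with a trend), on the deposited scale with its pseudocount of 1, which understates the change of low genes. P-values were adjusted by Benjamini-Hochberg within each of 3 comparisons. The fit was checked on simulated data with independent normal noise, which cannot check the scaling or whether the libraries are independent. Values of every library are given for members called in a comparison and for the 5 with the highest mean. The members and lists were chosen with earlier results of these data known. RIGI was matched by an older symbol. Values of 1 gene of the signalling list are not reported here. Exon overlap came from GENCODE on GRCh38, and gene positions came from RefSeq. Alternatives were other pseudocounts, filters, scalings and fits, and leaving out each library.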

Additional observations from a re-analysis of the deposited data

Results flagged for a closer look

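SAMD9L differed between the irradiated lines in direction against U87. Its log2 fold change was -0.90 in GSCs and 0.38 in Diff cells, and the difference between the lines was 1.28 (limma adjusted p = 1.35e-05). The median of its 24 flanking genes was 0.57 in GSCs and 0.41 in Diff cells relative to U87, and -0.14 between the lines. JAK1, the kinase shared by all interferon receptors, also lay on opposite sides of U87, at -0.51 in GSCs and 0.44 in Diff cells, with a difference of 0.95 (limma adjusted p = 4.81e-06). The groups of 3 libraries were too small for a check of single libraries that stand apart.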

How the results depend on the processing

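No result changed direction past the test under any alternative run. By adjusted p alone, without the fold threshold, 13 members were higher and 15 lower in GSCs against U87, 15 were above and 10 below U87 in Diff cells, and 8 were above and 5 below GSCs in Diff cells. With a pseudocount of 5, 1 member was called lower in GSCs than U87, Diff cells had 1 above and 1 below U87, and 0 were called above and 0 below GSCs. With a filter at a mean TPM over 5, 24 members were tested. Of these, 0 were called lower in GSCs and 1 lower in Diff cells against U87, and their medians were 0.014 and 0.423. IFI44L, GBP1 and GBP2, with means of 4.83, 2.57 and 2.34 TPM, did not pass this filter. In Diff cells against GSCs, 3 members were called higher with a pseudocount of 0.1, after rescaling without RN7SL1 and mitochondrial genes, with quantile normalization and with median-ratio scaling. In each of these settings they were SAMD9L, SAMD9 and TRIM22. Quantile normalization gave medians of -0.114 for GSCs relative to U87 and 0.147 for Diff cells relative to GSCs, and those for Diff cells relative to U87 were 0.2 and 0.202 after rescaling and median-ratio scaling. The cause was not tested.

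With 1 library left out, 5 to 6 members were called higher and 2 to 4 lower in GSCs against U87 (median -0.092 to -0.03), 5 to 6 above and 3 below U87 in Diff cells (median 0.104 to 0.18), and 1 to 2 higher and 1 lower in Diff cells against GSCs (median -0.009 to 0.114), and 37 to 39 members had a mean TPM over 1. The median of Diff cells relative to GSCs, 0.043 with all libraries, turned sign with no filter (-0.016) and without GSCs replicate 1 (-0.002) or Diff replicate 1 (-0.009), and that of GSCs relative to U87 turned sign with the filter at 5 TPM. Of the members past adjusted p alone, 24 of 28 in GSCs against U87, 18 of 25 in Diff cells relative to U87 and 8 of 13 in Diff cells relative to GSCs also passed in every alternative run for them. The others were IFIT1, OASL, SAMHD1 and PARP14 in GSCs against U87. In Diff cells they were IFIT2, OASL, MX2, IRF1, IRF7, GBP1 and IFI6 against U87, and IFI44, HERC5, STAT2, IFITM3 and IFI35 against GSCs. Same-numbered libraries did not deviate together (correlations of -0.042 to 0.049), so the numbers were not taken as pairs. With a replicate block, 5 members were called higher and 3 lower in GSCs against U87, as without it.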

Other observations

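Beyond the members, 27 of 36 other interferon-induced genes were tested. In GSCs against U87, 12 rose and 7 fell by adjusted p (25.3% and 23.3% of all genes), and 4 were called, all lower (7.53% of all genes). In Diff cells against U87, 9 rose and 6 fell (18.9% and 20.5% of all genes), with 3 called lower (6.36%). In Diff cells against GSCs, 7 rose and 5 fell (15% and 19.8%), with 2 called higher (2.66%). WARS1, the tryptophanyl-tRNA synthetase induced by interferon gamma, was 198 ± 33.8, 31.8 ± 2.26 and 88.4 ± 8.09 TPM in U87, GSCs and Diff cells (SD, n = 3), a log2 fold change of -2.59 and -1.14 against U87 (limma adjusted p = 7.09e-07 and 0.000127). CIITA, the activator of MHC class II genes, was 18.8 ± 1.85, 3.51 ± 0.362 and 8.52 ± 0.0378 TPM (SD, n = 3), and 11.5% of its exon bases overlap another gene on the same strand. The aminopeptidase LAP3 fell by 1.30 and 1.03 on the log2 scale (limma adjusted p = 1.85e-06 and 1.1e-05), and SLFN5 fell by 1.22 in GSCs and 0.28 in Diff cells (limma adjusted p = 1.87e-06 and 0.0122).

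None of 15 genes of MHC class I antigen presentation was called in any of the 3 comparisons by limma, where 2.66 to 9.52% of all genes were called in each direction. By adjusted p alone, 1 rose and 3 fell in GSCs against U87 (25.3% and 23.3% of all genes). In Diff cells, 1 rose and 6 fell against U87 (18.9% and 20.5%), and 2 rose and 4 fell against GSCs (15% and 19.8%).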
